A study of Homo sapiens with 8 samples.

Results

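The steroid hormone synthesis genes described here were STAR, CYP17A1, CYP11A1, HSD3B1, CYP19A1, POR, FDX1, SCARB1 and HSD17B2, 9 of the 19775 genes on the array. Members are the probe sets that the platform annotation pairs with exactly 1 of these symbols, which gave 23 of the 54675 probe sets. They were measured on 8 Affymetrix arrays in Hep-3B and Huh7, 2 established human hepatoma lines, grown in medium with 10% serum and transduced at a multiplicity of infection of 2 with lentivirus that carried a short hairpin RNA (shRNA). The hairpin was directed at KLHL23, a Kelch-like protein (shKLHL23), or at luciferase, a gene human cells lack (shLuc, the control). Control and knockdown cells alike went through infection and, from 48 hours, puromycin selection. Each of the 4 groups, Hep-3B-shLuc, Hep-3B-shKLHL23, Huh7-shLuc and Huh7-shKLHL23, had 2 arrays, numbered replicates 1 and 3. Separate cultures are not stated for the replicates, so p-values measure the spread between these arrays, which may be technical. The labels name 1 knockdown hairpin, so loss of KLHL23 and other effects of that hairpin cannot be told apart.

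Steroid hormones are made from cholesterol in a fixed order of steps. SCARB1 is the receptor that takes up cholesterol from high-density lipoprotein, and STAR carries cholesterol to the inner mitochondrial membrane, where CYP11A1 cuts its side chain to give pregnenolone with electrons passed on by FDX1. CYP17A1, in the endoplasmic reticulum, hydroxylates pregnenolone and progesterone and cleaves them to androgen precursors with electrons from POR, HSD3B1 makes progesterone and androstenedione, CYP19A1 (aromatase) makes oestrogens, and HSD17B2 inactivates oestradiol and testosterone. Adrenal cortex, gonads and placenta are known for making steroid hormones. Hepatocytes are known for taking up cholesterol and for reducing, conjugating and clearing steroids.

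The promoters of 3 enzymes are shown because they catalyse successive early steps of the pathway. That of CYP17A1, whose rise in Hep-3B knockdown cells was already known, is set beside those of CYP11A1 and HSD3B1. The transcripts of CYP11A1 and HSD3B1 were dim and differed little, as given further on. The 3 promoters are RefSeq sequences of GRCh38.p14, the 250 bases before the start of CYP17A1 (chr10:102837414-102837663, minus strand), CYP11A1 (chr15:74367647-74367896, minus strand) and HSD3B1 (chr1:119506953-119507202, plus strand). Capitals mark matches on either strand to AAGGTNA, which contains AAGGTCA, the half-site bound by NR5A receptors, to AGATAA, bound by GATA factors, or to TGACGT, the core of the cyclic AMP response element.

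CYP17A1: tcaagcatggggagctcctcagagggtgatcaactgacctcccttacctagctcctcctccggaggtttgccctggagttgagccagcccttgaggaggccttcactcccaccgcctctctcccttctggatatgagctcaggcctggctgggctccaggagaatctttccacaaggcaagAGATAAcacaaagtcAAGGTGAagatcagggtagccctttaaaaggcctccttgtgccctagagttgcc

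CYP11A1: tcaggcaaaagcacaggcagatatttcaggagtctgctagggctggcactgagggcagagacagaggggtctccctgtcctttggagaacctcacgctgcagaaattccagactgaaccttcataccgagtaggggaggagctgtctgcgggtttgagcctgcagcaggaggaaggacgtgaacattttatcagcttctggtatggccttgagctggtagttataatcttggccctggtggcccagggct

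HSD3B1: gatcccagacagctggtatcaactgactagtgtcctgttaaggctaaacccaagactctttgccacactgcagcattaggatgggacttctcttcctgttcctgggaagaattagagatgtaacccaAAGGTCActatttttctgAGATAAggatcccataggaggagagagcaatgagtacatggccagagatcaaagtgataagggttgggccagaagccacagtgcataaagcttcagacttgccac

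The CYP17A1 window held AGATAA 69 to 64 bases before the start and AAGGTGA, a form of AAGGTNA, 54 to 48 bases before it. The HSD3B1 window held AAGGTCA 123 to 117 bases and AGATAA 105 to 100 bases before the start, and the CYP11A1 window held none of these letters. Among 35116 RefSeq windows of the same length, AAGGTCA was found in 3.44%, AAGGTNA in 10.1%, AGATAA in 9.17% and TGACGT in 7.1%. The search for AAGGTNA was added after the sequences had been read, and a match describes letters, not a bound site. The table held windows for 5 of the 9 genes, these 3, FDX1 and CYP19A1, and CYP19A1 had 7 of them at different starts.

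Values are log2 expression values, on which a difference of 1 is a doubling. KLHL23 was lower in the knockdown arrays of both lines. It lay at 65.5% and 31.4% of the control mean in Hep-3B replicates 1 and 3, and at 23.4% and 25% in Huh7 replicates 1 and 3 (-2.05, SE 0.27, n = 2 per group, limma adjusted p = 0.00363 in Huh7). For ACTB, the 3' minus the 5' probe set, which reads RNA integrity, moved with the groups. This value was 0.442 and 0.537 in Hep-3B control arrays against 0.737 and 0.753 in knockdown arrays, and 0.873 and 0.833 against 0.525 and 0.546 in Huh7. The same measure of GAPDH was 0.117 and 0.12 against 0.223 and 0.236 in Hep-3B, without overlap, and 0.132 and 0.0887 against 0.148 and 0.112 in Huh7, where the groups overlapped. The part of these values in the results was not tested. Of 10 hepatocyte markers 9 were measured, and these 9 lay above the median of their array on all 8 arrays. Their summed log2 level was 110.64 to 110.79 in Hep-3B control and 112.52 to 112.88 in Hep-3B knockdown arrays, 108.37 to 108.72 in Huh7 control and 108.49 to 111.66 in Huh7 knockdown arrays, and its part in the results was not tested either. The Hep-3B sum rose mostly through TTR (9.01 and 8.96 against 10.30 and 10.83). FGB and TF were lower in Hep-3B knockdown arrays without overlap, and the remaining markers were higher. In Huh7, knockdown replicate 1 was low for AFP (11.41 against 12.40 in replicate 3) and APOB (12.22 against 12.85). Of 11 markers of adrenal and gonadal steroid cells 9 were measured, between 2.09 and 5.47. Of these, 4 lay below and 3 above the array median on all 8 arrays. Their summed level was 36.96 to 37.58 in Hep-3B control and 37.03 to 37.2 in Hep-3B knockdown arrays. It was 36.68 to 36.78 in Huh7 control and 36.27 to 37.03 in Huh7 knockdown arrays. Of 6 placental trophoblast markers, 3 lay below and 1 above the array median on all 8 arrays. Without overlap, PSG1 was higher in Hep-3B knockdown arrays (5.43 and 5.26 against 4.85 and 5.20) and ERVFRD-1 was lower there. In Huh7 knockdown arrays PSG1 (4.58 and 4.28 against 4.67 and 4.71) and GCM1 (3.26 and 3.47 against 4.71 and 4.13) were lower without overlap. These are bulk samples, in which a change in the number of expressing cells and in the RNA per cell cannot be told apart.

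**Figure D1:**
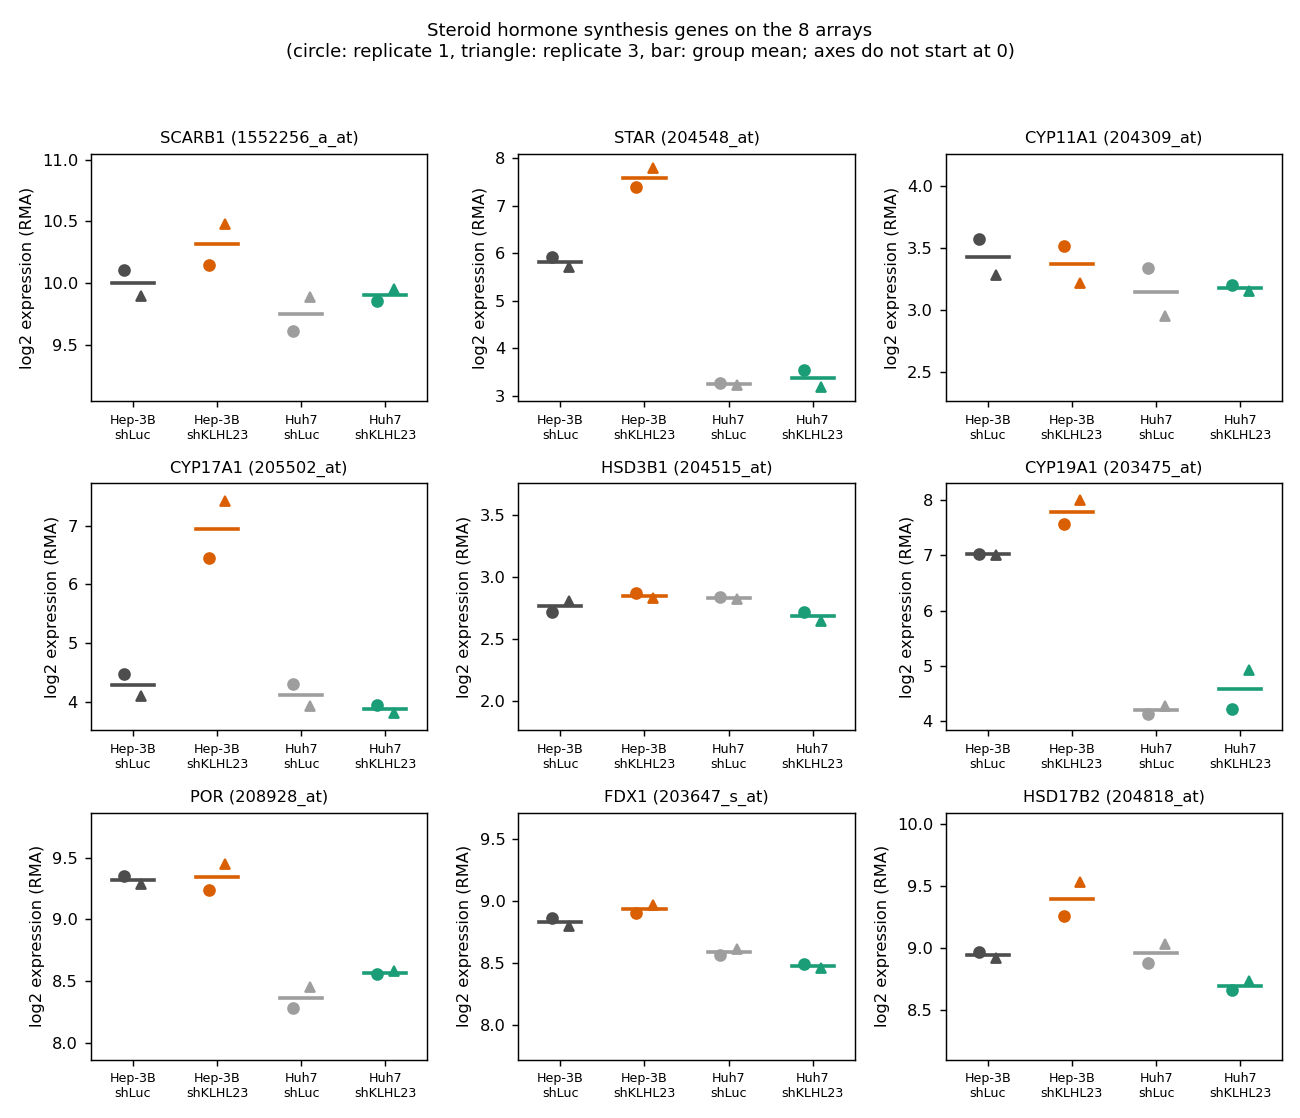
Log2 expression of the 9 genes on each array, with a panel for the probe set that stands for each gene (circles replicate 1, triangles replicate 3, bars group means; vertical axes differ between panels and do not start at 0). STAR and CYP17A1 lie highest in the Hep-3B knockdown arrays, and STAR and CYP19A1 are lower in all 4 Huh7 arrays than in any Hep-3B array.

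Knockdown of KLHL23 was compared first in the Hep-3B line. CYP17A1 and STAR were higher in both knockdown arrays, by 2.66 (SE 0.28, n = 2 per group) and 1.78 (SE 0.16, n = 2 per group), or 6.3-fold and 3.43-fold. CYP19A1 was 1.7-fold and HSD17B2 1.37-fold higher, while CYP11A1, HSD3B1, POR and FDX1 differed by less than 0.11 in either direction. The list was drawn up with the Hep-3B results for CYP17A1 and STAR known, so the values of this comparison are a description with no test. Both knockdown arrays lay above both control arrays for 7 of the 9 genes and below them for 0, beside 29.4% and 23.5% of all genes, and nothing is read from that count. The median difference of the 9 genes was 0.31, beside 0.02 over all genes.

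At cholesterol entry, SCARB1 was at 10.11 and 9.90 in Hep-3B control cells and at 10.15 and 10.48 after knockdown, replicates 1 and 3 in that order here and below. The groups did not overlap, but replicate 1 of the knockdown lay just above the higher control array. The difference was 0.31 (SE 0.14), and it was 0.15 without knockdown replicate 3 and 0.47 without knockdown replicate 1. Of the 4 other probe sets of SCARB1, 2 gave 0.34 (SE 0.13) and 0.26 (SE 0.11) with no overlap of the arrays, and the 2 dimmest gave 0.05 and 0.02. STAR, which controls how much cholesterol reaches the side-chain cleavage enzyme, was at 5.93 and 5.70 in control and at 7.40 and 7.79 in knockdown arrays. Replicates 1 and 3 of the knockdown were thus 3.01-fold and 3.92-fold above the control mean, and STAR has 1 probe set here.

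CYP11A1, the enzyme that uses that cholesterol, was at 3.57 and 3.28 in control and at 3.52 and 3.22 in knockdown arrays. The groups overlapped, with a difference of -0.05 (SE 0.16). These values lie near the lower quartile of the arrays, which ran from 3.08 to 3.12, and no background call was used here. FDX1, its electron donor, was at 8.86 and 8.80 in control and at 8.90 and 8.97 in knockdown arrays, a difference of 0.10 (SE 0.09). The groups did not overlap, by a margin that was smaller than the spread between the arrays of either group. Its 2 other probe sets gave 0.10 and 0.03.

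CYP17A1, which opens the branch to cortisol and androgens, was at 4.48 and 4.09 in control and at 6.45 and 7.42 in knockdown arrays of its brighter probe set. Replicates 1 and 3 of the knockdown were 4.51-fold and 8.81-fold above the control mean, so both were high and replicate 3, the array with the lower KLHL23 level, was higher. The part of the KLHL23 level was not tested. A second probe set lay between 1.89 and 2.15, below the lower quartile of its array on all 8 arrays, and gave -0.01 (SE 0.10). With the mean of both probe sets in place of the brighter, the difference was 1.32. POR, the reductase that serves CYP17A1 and the other microsomal P450 enzymes, was at 9.35 and 9.29 in control and at 9.24 and 9.45 in knockdown arrays, and these overlapped.

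HSD3B1 lay below the lower quartile on all 8 arrays in both of its probe sets, between 2.65 and 2.87 for the brighter and between 2.38 and 2.87 for the dimmer. The differences in Hep-3B were 0.08 (SE 0.09) and -0.26 (SE 0.15), opposite in sign, and the transcript is closely similar to that of HSD3B2, so its probes can share signal. CYP19A1 was at 7.03 and 7.0 in control and at 7.57 and 8.0 in knockdown arrays of its brightest probe set. Both knockdown arrays stood clear of the control arrays, with a difference of 0.77 (SE 0.22). HSD17B2 was at 8.97 and 8.92 in control and at 9.26 and 9.53 in knockdown arrays, again without overlap, and differed by 0.45 (SE 0.11). For STAR, CYP17A1, CYP19A1, SCARB1, HSD17B2, POR and FDX1 knockdown replicate 3 was the higher knockdown array.

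**Figure D2:**
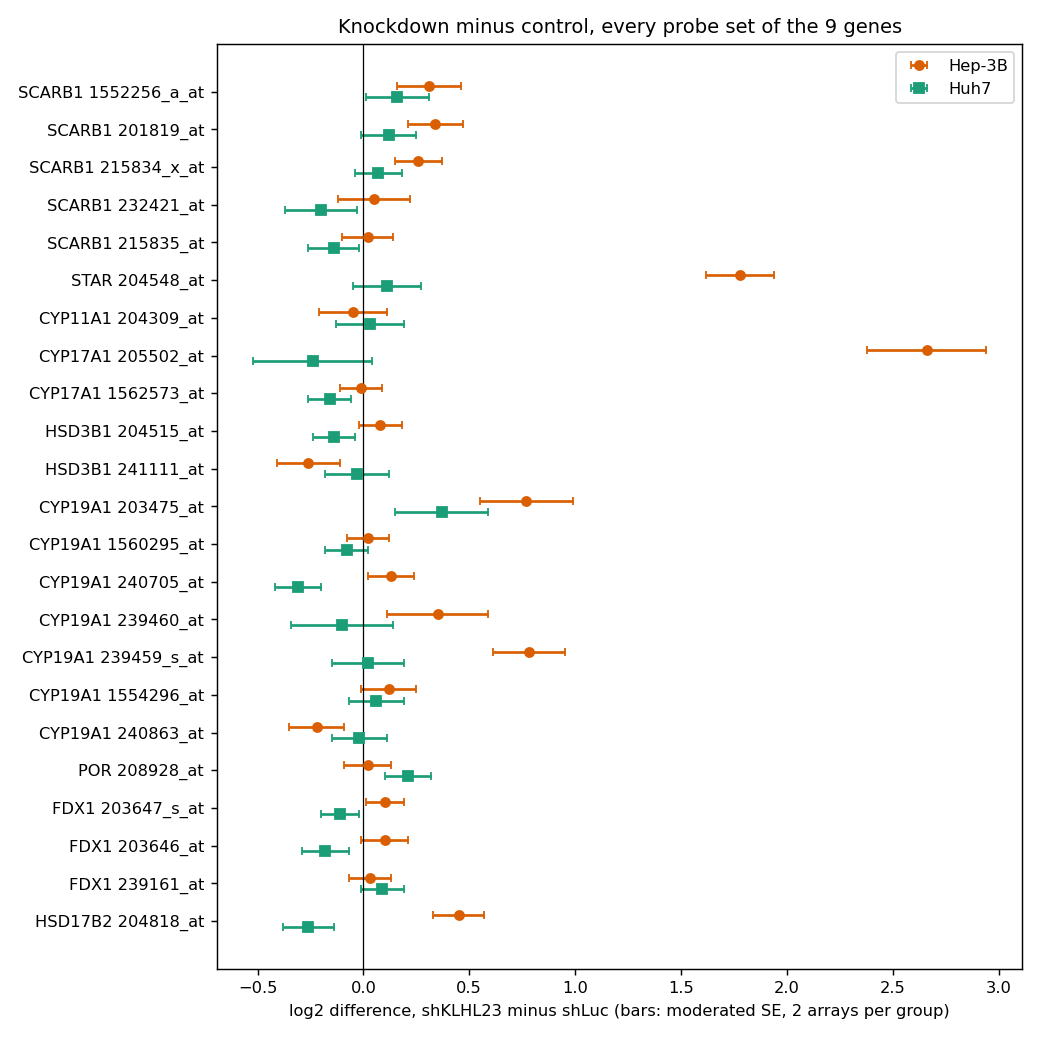
Log2 difference between knockdown and control for each of the 23 probe sets in Hep-3B (circles) and Huh7 (squares), with the moderated SE of the fit over all probe sets (2 arrays per group). The Hep-3B values of STAR at 1.78 and the brighter CYP17A1 probe set at 2.66 lie furthest from 0, and the Huh7 values lie between -0.31 and 0.37.

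The 7 probe sets of CYP19A1 did not behave alike in Hep-3B. Beside the brightest, another probe set was at 3.53 and 3.35 in control and at 3.94 and 4.49 in knockdown arrays, a difference of 0.78 (SE 0.17). One more was at 4.03 and 3.88 in control and at 3.83 and 4.77 in knockdown arrays, so that replicate 1 lay below both control arrays and replicate 3 above them. The other 4 differed by -0.22 to 0.13, among them the dimmest, which lay below the lower quartile on all 8 arrays. With the mean of the 7 probe sets the Hep-3B difference of CYP19A1 was 0.28. CYP19A1 is known for tissue-specific first exons, and the sources used here do not say which transcript a probe set reads.

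**Figure D3:**
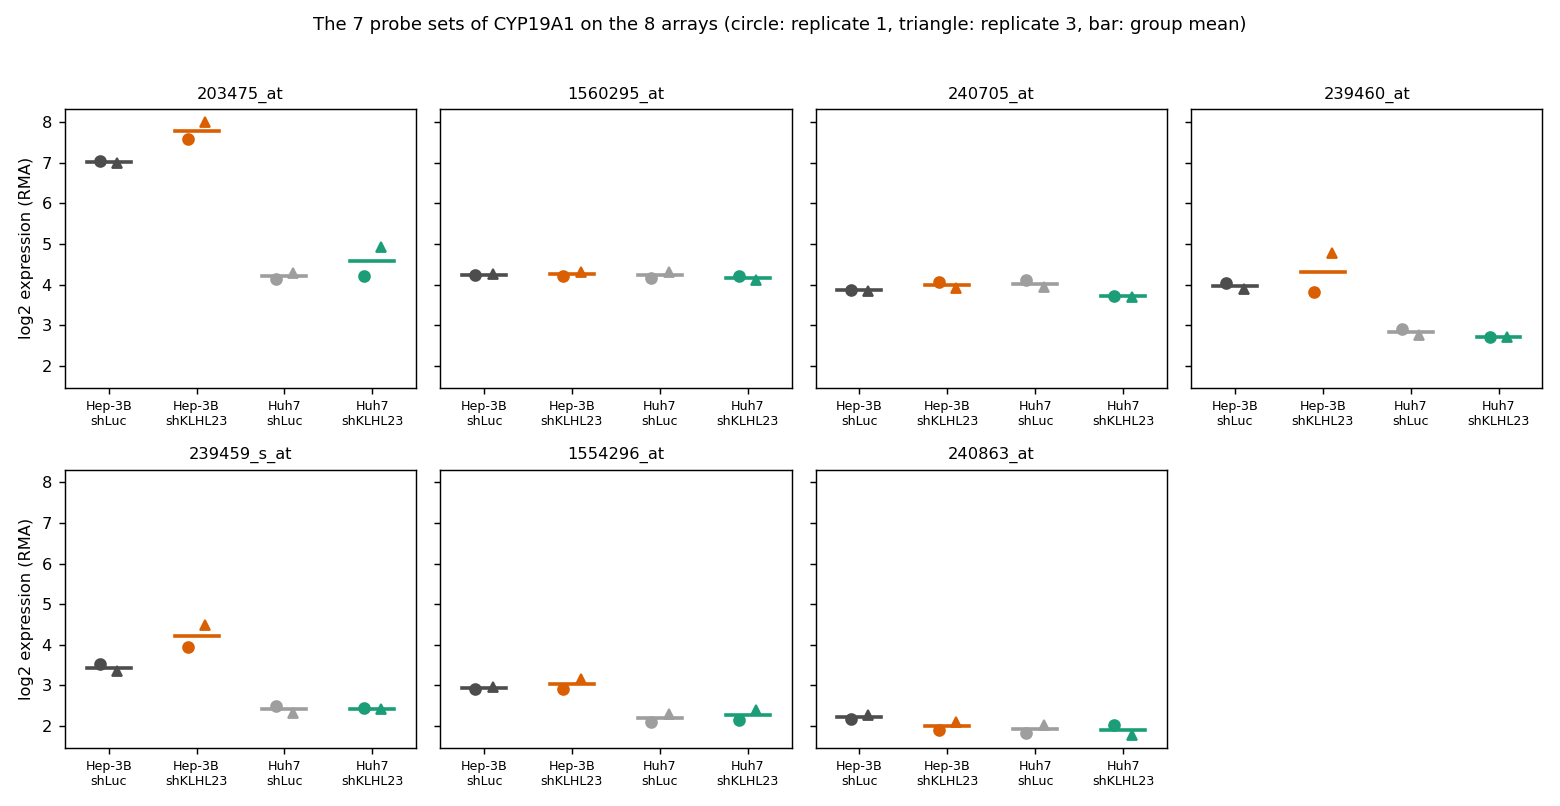
Log2 expression of the 7 probe sets of CYP19A1 on each array, on a common axis that does not start at 0 (circles replicate 1, triangles replicate 3, bars group means). The brightest probe set and the one that runs from 3.35 to 4.49 in Hep-3B are higher in both Hep-3B knockdown arrays than in the Hep-3B control arrays, and the 4 Huh7 arrays of each lie below the Hep-3B arrays.

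The same knockdown was then compared in Huh7, whose arrays were not part of the Hep-3B contrast. None of the 9 genes passed (0 of 9 called by limma at an adjusted p under 0.05), while 13.5% of all genes were called in this line. At an unadjusted limma p under 0.05 there was 1 of 9, HSD17B2, beside 27.5% of all genes. Both knockdown arrays lay above both controls for 1 of 9, POR, and below them for 3 of 9, HSD17B2, FDX1 and HSD3B1, beside 26.5% and 27.2% of all genes. The differences ran from -0.26 to 0.37, with a median of 0.03. Over all probe sets, 0 of the 23 passed, beside 3.83% called higher and 4.67% called lower.

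CYP17A1 was at 4.30 and 3.93 in Huh7 control and at 3.94 and 3.81 in knockdown arrays, which overlapped, a difference of -0.24 (SE 0.28, n = 2 per group, limma adjusted p = 0.647). STAR was at 3.27 and 3.22 in control and at 3.54 and 3.18 in knockdown arrays, with 1 knockdown array above and 1 below both controls (0.11, SE 0.16, limma adjusted p = 0.716). Subtracting the Hep-3B difference from that in Huh7 gave -2.90 (SE 0.40) for CYP17A1 and -1.67 (SE 0.23) for STAR. Because the Hep-3B values brought these genes into the list, that contrast is given with no test.

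CYP19A1 was uneven in Huh7, at 4.13 and 4.28 in control and at 4.22 and 4.93 in knockdown arrays (0.37, SE 0.22, limma adjusted p = 0.325). Knockdown replicate 3 alone was high, at 1.65-fold of the control mean, and the difference was 0.02 without it. HSD17B2 was at 8.88 and 9.03 in control and at 8.66 and 8.73 in knockdown arrays. These did not overlap and the direction was opposite to that in Hep-3B (-0.26, SE 0.11, limma adjusted p = 0.18). POR ran the other way, from 8.28 and 8.45 in control to 8.56 and 8.58 in knockdown arrays (0.21, SE 0.11, limma adjusted p = 0.251). SCARB1, CYP11A1, FDX1 and HSD3B1 gave 0.16, 0.03, -0.11 and -0.14, with limma adjusted p of 0.541, 0.937, 0.484 and 0.351.

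The third comparison set Huh7 control against Hep-3B control cells, which shares the Hep-3B control arrays with the first. CYP19A1, STAR and POR were lower in Huh7, by 2.81, 2.57 and 0.96 on the log2 scale. The other 6 genes did not pass. The 3 of 9, all lower, compare with 14.9% of all genes called lower and 32.7% called in either direction. With 9 genes, nothing is read from that count.

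STAR, at 5.93 and 5.70 in Hep-3B and at 3.27 and 3.22 in Huh7 control arrays, was 5.94-fold lower in Huh7 (-2.57, SE 0.16, n = 2 per group, limma adjusted p = 5.73e-06). Its Huh7 values lie close to the lower quartile of the arrays, so the size of the gap is uncertain. CYP19A1 was 7.02-fold lower (-2.81, SE 0.22, limma adjusted p = 1.98e-05). Among the 7 probe sets of CYP19A1, 4 were called lower in Huh7 over all probe sets, the brightest and 3 that gave -1.13, -1.03 and -0.73 (limma adjusted p = 0.00728, 0.00148 and 0.00288). These 3 were below the lower quartile in the Huh7 arrays. The probe set at -0.73 was below it in the Hep-3B control arrays as well, at 2.91 and 2.96. POR was 1.94-fold lower (-0.96, SE 0.11, limma adjusted p = 0.000163). Of the 23 probe sets 6 were called lower and 0 higher, beside 12.9% of all probe sets in each direction.

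CYP17A1, in contrast, was at 4.48 and 4.09 in Hep-3B and at 4.30 and 3.93 in Huh7 control arrays (-0.16, SE 0.28, limma adjusted p = 0.727). The control levels of HSD17B2 in the lines overlapped (0.01, SE 0.11, limma adjusted p = 0.975). FDX1 gave -0.25 (SE 0.09, limma adjusted p = 0.0571), with no overlap of the arrays. It passed under 6 of 18 alternatives (limma adjusted p = 0.0179 to 0.0465 in these, and 0.0179 to 0.705 over the 18): with array weights, dim genes left out, an intensity trend, the compared arrays alone, or without either Huh7 knockdown array. CYP11A1, SCARB1 and HSD3B1 gave -0.28, -0.26 and 0.06, with limma adjusted p of 0.245, 0.224 and 0.656.

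Put in order of level, STAR stood at a mean of 7.59 in Hep-3B knockdown, 5.81 in Hep-3B control, 3.36 in Huh7 knockdown and 3.24 in Huh7 control cells, and the last pair overlapped. CYP19A1 followed the same order, at 7.79, 7.02, 4.58 and 4.21, and its Huh7 groups overlapped as well. CYP17A1 stood at 6.94 in Hep-3B knockdown, and its other groups, at 4.28, 4.12 and 3.88, overlapped with their neighbours. HSD17B2 stood at 9.40 in Hep-3B knockdown, at 8.95 in both control groups and at 8.70 in Huh7 knockdown cells. CYP11A1 lay between 2.95 and 3.57 on the 8 arrays.

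The genes whose pattern was nearest to CYP17A1 over the 8 arrays, by the root mean square distance between values centred on each gene's mean, were the interferon-induced IFI27 (0.42), CYP7A1 (0.46), the first enzyme of bile acid synthesis, and the protease CAPN3 (0.50). IFI27 was at 5.24 and 5.35 in Hep-3B control and at 6.80 and 7.59 in knockdown arrays, and between 3.96 and 4.38 in Huh7. CYP7A1 lay below the lower quartile on 6 of the 8 arrays. For STAR the nearest were SYTL2 (0.33), a protein of vesicle transport, the cytoskeletal protein EPB41L1 (0.40) and the matrix protein SPARC (0.43). SPARC was at 6.94 and 7.06 in Hep-3B control and at 7.49 and 7.79 in knockdown arrays, and between 3.58 and 3.78 in Huh7. The member nearest to STAR was CYP19A1, which ranked 6 at 0.50, and the member nearest to CYP17A1 was STAR, which ranked 432 at 0.97.

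Other genes of steroid supply, synthesis, clearance and regulation were taken from a list of 65, of which 56 were measured and the other 9 were not analysed here. In Huh7 knockdown cells 11 of these 56 rose and 4 fell, beside 5.75% and 7.73% of all genes, and their median was 0.02. The share called was not tested against other genes. The 15 calls depend on single arrays and on the probe sets used. PAPSS2, SULT2A1, CYP3A4, NPC2 and NR0B2 stayed called without either Huh7 control array, and the others were lost without one or the other. There were 12 calls with the Huh7 arrays alone. Leaving out probe sets prone to cross-hybridisation gave 10, which were not all among the 15. They included CYB5R3 (0.61, limma adjusted p = 0.019), not called in the main fit, and CREM with its direction reversed. PAPSS2, among others, was then unmeasured, while AKR1C2, CYP3A4, CREB1, NR4A1 and NR3C1 were measured and not called.

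Among 13 genes of steroid conjugation and clearance 3 rose and 0 fell in Huh7. PAPSS2, which makes the sulfate donor for steroid sulfation, was at 6.64 and 6.65 in control and at 8.76 and 8.34 in knockdown arrays (1.91, SE 0.13, n = 2 per group, limma adjusted p = 0.000453). SULT2A1, the sulfotransferase for dehydroepiandrosterone and bile acids, was at 8.20 and 8.26 in control and at 9.27 and 9.19 in knockdown arrays (1.0, SE 0.12, limma adjusted p = 0.00276). Both knockdown arrays of either gene stood well above the controls. CYP3A4, which hydroxylates steroids and drugs, rose by 1.0 through a probe set prone to cross-hybridisation (limma adjusted p = 0.00292), and gave 0.19 without such probe sets (limma adjusted p = 0.415) and 0.22 with the mean of its probe sets (limma adjusted p = 0.23).

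Of 16 other steroid-forming enzymes 4 rose and 0 fell in Huh7, and these were AKR1C4 (0.84), AKR1C3 (0.70), AKR1C1 (0.60) and AKR1C2 (0.59), with limma adjusted p between 0.00554 and 0.00858. The members of this family are near-identical in sequence, so their probe sets can share signal, and AKR1C2 was at 0.20 (limma adjusted p = 0.388) without probe sets prone to cross-hybridisation. HSD3B2, the adrenal form of the HSD3B enzymes, lay between 2.21 and 2.68 on the 8 arrays and gave -0.07 (limma adjusted p = 0.727). Of 8 cholesterol supply genes NPC2, which moves cholesterol out of lysosomes, rose by 0.80 (limma adjusted p = 0.00276), and the cholesterol carrier STARD4 was at -0.58 (limma adjusted p = 0.113). The knockdown arrays of STARD4 were apart, at 5.92 and 6.64, and the difference was -0.94 without knockdown replicate 3 (limma adjusted p = 0.0104) and -0.22 without knockdown replicate 1. Of 3 electron transfer partners H6PD, which supplies reducing power in the endoplasmic reticulum, rose by 0.47 (limma adjusted p = 0.0145), and CYB5A, the cytochrome that aids the lyase step of CYP17A1, gave 0.17 (limma adjusted p = 0.215).

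Of 10 regulators 2 rose and 3 fell in Huh7. NR0B2, a nuclear receptor that represses other nuclear receptors including NR5A2, was at 6.06 and 6.12 in control and at 8.21 and 7.92 in knockdown arrays (1.97, SE 0.11, limma adjusted p = 0.000255). CREM, a factor of cyclic AMP signalling, was called higher by 0.41 (limma adjusted p = 0.0273), but gave 0.14 with the mean of its probe sets (limma adjusted p = 0.294) and -0.61 without probe sets prone to cross-hybridisation (limma adjusted p = 0.00485), so its direction depends on the probe set; it is named after its values were seen. CEBPB fell by 1.08 (limma adjusted p = 0.0209), NR4A1 by 0.47 (limma adjusted p = 0.00997) and CREB1 by 0.42 (limma adjusted p = 0.0435). The fall of NR4A1 comes from a probe set prone to cross-hybridisation, and the gene was at 0.06 without such probe sets. NR5A2, the NR5A receptor of liver, gave 0.18 (limma adjusted p = 0.351). Of 6 steroid receptors the glucocorticoid receptor NR3C1 fell by 0.61 (limma adjusted p = 0.0299). CEBPB and NR3C1 were not called without Huh7 knockdown replicate 1 or without either Huh7 control array, nor NR3C1 without either Hep-3B control array, and CREB1 was not called without any single Huh7 array or either Hep-3B control array. CREB1 was also not called with the replicate block (limma adjusted p = 0.0601), array weights (0.0795), further quantile normalisation (0.0676), the Huh7 arrays alone (0.0713), all probe sets (0.0636) or without probe sets prone to cross-hybridisation (0.068). Nor was NR3C1 in the last setting (limma adjusted p = 0.0881), or CEBPB with an intensity trend and robust variances (limma adjusted p = 0.0585). H6PD was not called without Huh7 knockdown replicate 1 or without either Huh7 control array.

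In Hep-3B, as a description, the pathway genes furthest from 0 were CEBPB (-1.0, SE 0.24), CYP3A4 (0.83, SE 0.12), the steroid sulfatase STS (0.73, SE 0.17) and SULT2A1 (0.71, SE 0.12). SULT2A1 was at 9.94 and 9.80 in control and at 10.42 and 10.75 in knockdown arrays. The median of the 56 was 0.08 in Hep-3B. NR5A2 was at 5.29 and 5.47 in control and at 5.32 and 5.50 in knockdown arrays of Hep-3B, which overlapped. The steroidogenic NR5A1 lay between 4.0 and 4.66 on the 8 arrays.

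Between the control lines 29 of the 56 pathway genes were called, 13 higher and 16 lower in Huh7, beside 17.7% and 14.9% of all genes. The same Huh7 control arrays served the Huh7 knockdown comparison with the opposite sign. A gene called in opposite directions in these comparisons, as NR0B2, PAPSS2 and SULT2A1 were, thus does not give independent results. SULT1E1, which sulfates oestrogens, was at 3.36 and 3.71 in Hep-3B and at 8.41 and 8.25 in Huh7 control arrays (4.79, SE 0.46, limma adjusted p = 7.14e-05). AKR1D1, the steroid 5-beta-reductase, went the other way, at 6.80 and 6.66 in Hep-3B and 3.07 and 3.02 in Huh7 (-3.69, SE 0.10, limma adjusted p = 4.27e-08). The Huh7 values of AKR1D1 lie close to the lower quartile of the arrays, and the Hep-3B values of SULT1E1 lie little above it. The size of either gap is therefore uncertain. SULT2A1 (-1.64) and HSD17B8 (-1.79) were lower in Huh7, as were AKR1C3 (-3.08), AKR1C4 (-1.01), AKR1C2 (-0.99) and AKR1C1 (-0.85). Without probe sets prone to cross-hybridisation AKR1C2 was at -0.17 and did not pass (limma adjusted p = 0.39).

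NR0B2 was the regulator furthest from 0 between the lines, at 10.80 and 10.77 in Hep-3B and 6.06 and 6.12 in Huh7 control arrays (-4.70, SE 0.11, limma adjusted p = 2.5e-08). NR5A2 (1.77) and GATA6 (1.84) were higher in Huh7 and CREB1 (-0.61) was lower. Among cholesterol supply genes the mitochondrial membrane protein TSPO (0.80) and STARD5 (0.39) were higher, and NPC2 (-0.63) and NPC1 (-0.52) lower. CYB5R3 (-0.42), the oestrogen-binding receptor GPER1 (-0.89) and the mineralocorticoid receptor NR3C2 (0.42) were also called. STARD5, CYB5R3 and NR3C2 were not called without Hep-3B control replicate 1 or without Huh7 control replicate 1, nor CYB5R3 and STARD5 without Hep-3B control replicate 3, nor CYB5R3 without Huh7 control replicate 3. NPC1 was at 0.03 (limma adjusted p = 0.879) with the mean of its 4 probe sets.

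**Figure D4:**
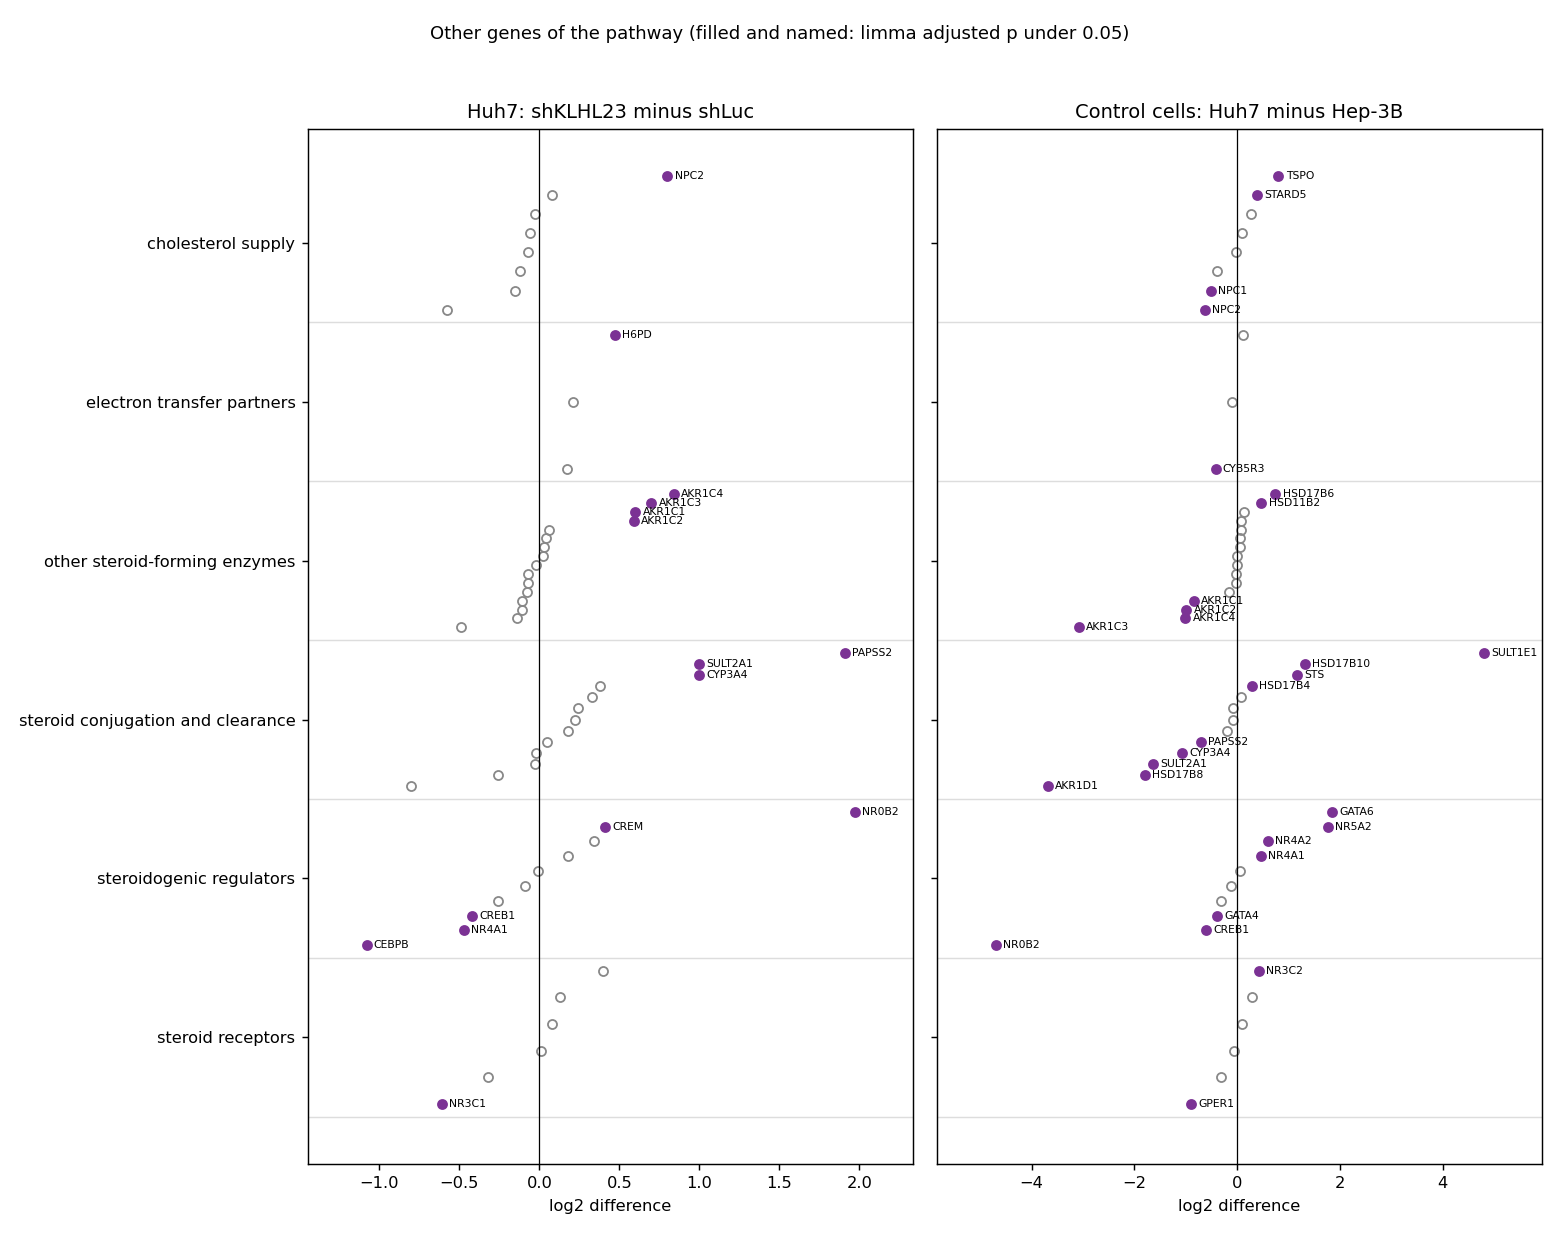
Log2 difference of the 56 other pathway genes, grouped by role, between knockdown and control in Huh7 (left) and between Huh7 and Hep-3B control cells (right), filled and named where the limma adjusted p was under 0.05. NR0B2 lies at 1.97 on the left and at -4.70 on the right, and SULT1E1 at 4.79 on the right. Both sides use the Huh7 control arrays, with opposite signs.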

How the data were processed

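The values used are log2 expression values deposited by the authors. Per the submitters' processing notes, they were made with RMA, and Affymetrix Expression Console 1.2 is named. This method subtracts background, equalises the intensity distributions of arrays and summarises probes, which shrinks changes of dim probe sets and hides changes in total RNA. Further settings are not given in the sources used here. The platform annotation paired 41097 probe sets with 1 symbol, 1801 with several and 11777 with none, and a gene was represented by its probe set with the highest mean. Differences were fitted with limma 3.58.1 in R 4.3.3 (lmFit, a mean per group, all 8 arrays, eBayes; 4 residual and 4.59 prior degrees of freedom), with Benjamini-Hochberg adjustment over 19775 genes, or over 54675 probe sets where single probe sets are given. A gene was called at an adjusted p under 0.05. The number of arrays limits the precision. The fit was tested on simulated data. Members and lists were chosen with earlier results of these data known. Named pathway genes are up to 4 called per list and comparison by size of difference, with NR5A2, CYB5A, STARD4 and HSD3B2 always, the 4 largest in Hep-3B, and the 3 nearest in pattern to CYP17A1 and STAR. Replicate numbers 1 and 3 were not used to pair the arrays in the main fit, and the labels do not say whether they do.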

Additional observations from a re-analysis of the deposited data

Results flagged for a closer look

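By their brightest probe sets, HSD17B2, FDX1 and HSD3B1 had both knockdown arrays above the controls in Hep-3B and below them in Huh7. Of all genes, 29.4% lay above in Hep-3B and 27.2% below in Huh7, and the share with both was not counted. The dimmer HSD3B1 probe set was lower in Hep-3B (-0.26) without overlap. Of the other FDX1 probe sets, the brighter gave 0.10 in Hep-3B and -0.18 in Huh7, and the dimmer was higher in Huh7 (0.09) without overlap. The difference between the lines was not tested for these genes. Subtracting the Hep-3B difference from that in Huh7 gave -0.70 (SE 0.16) for HSD17B2, -0.21 (SE 0.12) for FDX1 and -0.23 (SE 0.12) for HSD3B1, which lay below the lower quartile on all 8 arrays. Among the 56 pathway genes, PAPSS2 and NR0B2 alone were called by the test of the difference itself. The share of all genes called by this test was not counted, and its results under the alternatives are not given. PAPSS2 rose by 1.91 in Huh7 and was at 0.21 in Hep-3B, a difference of 1.69 (SE 0.19, n = 2 per group, limma adjusted p = 0.0096). NR0B2 rose by 1.97 in Huh7 and was at -0.27 in Hep-3B, a difference of 2.25 (SE 0.16, limma adjusted p = 0.00312). The depth of the knockdown differed too, with KLHL23 at -1.14 in Hep-3B and at -2.05 in Huh7, and its part in these differences was not tested.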

How the results depend on the processing

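The count of members called was 0 in Huh7 knockdown under the 18 alternatives and 3 or 4 between control lines, where FDX1 was the added call. Leaving out 1 array at a time gave 5 to 17 pathway genes called in Huh7 knockdown, 22 to 29 between control lines, and a median Hep-3B difference of the members of 0.15 to 0.47. Among called differences, the directions that turned were those of CREM (-0.61) and NR4A1 (0.06) in Huh7 knockdown and of CYP3A4 (0.02) and NR4A1 (-0.12) between control lines, without probe sets prone to cross-hybridise, and of NPC1 (0.03) between control lines with the mean of its probe sets. In each of these another probe set, or a mean over several, stood for the gene. Signs of differences that were not called turned too, as for HSD3B1 in Hep-3B (-0.09 with the mean of its probe sets) and STAR in Huh7 (-0.07 without knockdown replicate 1). With the replicate block 0 members and 14 pathway genes were called in Huh7 knockdown, and 3 members and 28 pathway genes between control lines. The deviations of arrays with equal numbers correlated at -0.0909 to 0.0889 over the 6 pairs of groups. No shared deviation was thus seen, which cannot show whether equal numbers were handled together, and the labels do not say. Values near the lower quartile, as for CYP11A1, HSD3B1 and STAR in Huh7, limit what these arrays can show, since no background call was used here.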
